A study of Mus musculus with 24 samples.

Results

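Toll-like receptors are germline-encoded sensors of microbial molecules on phagocytes and dendritic cells (DCs). Most of those at the cell surface bind lipids and lipoproteins of microbes, and those in endosomes bind nucleic acids or, in the mouse, a protein of parasites that has been taken up. Ligand binding recruits the adaptors MyD88 or TRIF and leads to NF-kB and interferon regulatory factor signalling, which in DCs raises cytokines and co-stimulation. The endosomal receptors need the chaperone Unc93b1 to leave the endoplasmic reticulum and are cut by proteases before they signal. The 10 genes described here were chosen by symbol from the 55414 gene lines of the count tables. Tlr1, Tlr2, Tlr4 and Tlr6 encode the 4 surface receptors, and Tlr3, Tlr7, Tlr8, Tlr9, Tlr11 and Tlr13 the 6 endosomal receptors. Each symbol matched 1 Ensembl identifier, for example ENSMUSG00000027995 for Tlr2 and ENSMUSG00000031639 for Tlr3, and all 10 passed the filter on low counts in every model.

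Mouse bone marrow cells were grown into DCs in 2 culture types, and messenger RNA was sequenced in 8 groups of 3 libraries. FL cultures grew with 200 ng/ml of FLT3L, a growth factor of DC precursors, plus GM-CSF at 20 ng/ml until day 16, while GM cultures grew until day 8 with GM-CSF alone, at 20 ng/ml. The series names the FL cultures cDC1 (type 1 conventional DCs) and the GM cultures moDCs (monocyte-derived DCs). Cells were treated for 24 h with AZD5582 (an antagonist of inhibitor of apoptosis proteins) or its solvent DMSO, or taken at the start (t0). FL cultures had the groups 0.05 µM, DMSO and t0, and GM cultures had t0, DMSO, 0.1, 0.5 and 1 µM. The mice were Cas9-EGFP or WT C57BL/6JRj, and the labels do not say which genotype gave which library. The FL libraries carry the culture numbers 91, 94 and 95, whereas the GM libraries share a single culture number and are numbered 1 to 3. Whether the GM libraries came from separate animals is not given, so their p-values may measure technical spread only.

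Levels are given in CPM (gene counts scaled to a common TMM-adjusted library total), in the order of the culture or replicate numbers. Levels of different genes are compared only as CPM per kb of exon. A gene was called where edgeR's quasi-likelihood test gave a Benjamini-Hochberg adjusted p under 0.05 over all genes tested, and each log2 change carries its standard error (SE). Libraries held 27012555 to 85820558 counts on genes. Leaving out the FL DMSO library of culture 91 raised the genes called at 0.05 µM to 1171 higher and 812 lower, against 258 and 205 with it, so FL results are also given without culture 91 where it decides them. All 10 cDC1 markers stood at 1 CPM or more at t0 in FL cultures, and 6 of 10 in GM cultures at t0. All 12 monocyte and macrophage markers stood at 1 CPM or more in both, with a summed level of 916 to 1105 CPM in FL cultures and 19656 to 25298 CPM in GM cultures at t0. Of these markers Lyz2 alone averaged 591 CPM in FL cultures and 18570 CPM in GM cultures at t0, so it weighs heavily in the sums. Neutrophil markers summed to 1220 to 4126 CPM in FL cultures at t0 and to 277 to 334 CPM in GM cultures at t0. Mast cell and basophil markers summed to 205 to 817 CPM in FL cultures and to 41.2 to 57.9 CPM in GM cultures at t0, with Mcpt4 at 0 in both. In bulk RNA, fewer cells of a type and less RNA per cell cannot be told apart, which holds for every difference below.

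Counts of 3 members need care. Tlr1 and Tlr6, which lie on chromosome 5, share 454 exact stretches of 50 bases in their exons, 13.6% of those in Tlr1 and 12.3% of those in Tlr6. A read that lies wholly within these stretches cannot be assigned to either gene by sequence, and how many reads did so was not counted. No other pair of members shares such a stretch. The exons of Tlr3, on chromosome 8, overlap those of Gm45542 on the opposite strand, and the strand setting used in counting is unstated, so Tlr3 is uncertain to that extent.

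The sequences just upstream of these genes were read from RefSeq promoters of GRCm38.p6, which hold 250 bases before and 50 bases after a gene start, 300 bases in all. Entries existed for 8 of the 10 members, and Tlr4 and Tlr7 are named only. Matches on either strand were sought to an NF-kB motif, an ISRE motif (the interferon-stimulated response element), GAGGAAGT (PU.1, a myeloid transcription factor) and TGANTCA (AP-1), and 5 of the 8 members held at least 1. Over all 32851 promoters, 0.411% held the NF-kB letters, 3.20% those of PU.1, 3.44% those of the ISRE and 7.81% those of AP-1. A pair of endosomal receptors that were higher in FL cultures at t0 and a pair of related surface receptors are shown, with the matches in capitals. The promoter of Tlr3 (chr8:45410331-45410630, minus strand) held an NF-kB match that starts 211 bases before the gene start, that of Tlr11 (chr14:50357664-50357963, plus strand) held PU.1 and ISRE matches at 133 and 122 bases before it, that of Tlr1 (chr5:64933509-64933808, minus strand) held a PU.1 match at 23 bases before it, and that of Tlr6 (chr5:64959117-64959416, minus strand) held overlapping ISRE matches on its other strand at 116 and 110 bases before it.
Tlr3: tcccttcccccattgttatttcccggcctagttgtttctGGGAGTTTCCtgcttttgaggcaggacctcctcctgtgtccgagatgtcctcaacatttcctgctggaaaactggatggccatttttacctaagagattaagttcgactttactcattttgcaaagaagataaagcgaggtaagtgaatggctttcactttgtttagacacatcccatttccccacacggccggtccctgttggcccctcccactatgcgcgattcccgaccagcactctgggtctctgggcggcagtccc
Tlr11: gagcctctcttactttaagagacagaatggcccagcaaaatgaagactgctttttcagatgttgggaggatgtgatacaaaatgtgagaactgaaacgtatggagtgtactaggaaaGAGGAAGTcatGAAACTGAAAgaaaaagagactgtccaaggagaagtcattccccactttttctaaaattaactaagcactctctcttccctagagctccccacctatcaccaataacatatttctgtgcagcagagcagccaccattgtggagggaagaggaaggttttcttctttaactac
Tlr1: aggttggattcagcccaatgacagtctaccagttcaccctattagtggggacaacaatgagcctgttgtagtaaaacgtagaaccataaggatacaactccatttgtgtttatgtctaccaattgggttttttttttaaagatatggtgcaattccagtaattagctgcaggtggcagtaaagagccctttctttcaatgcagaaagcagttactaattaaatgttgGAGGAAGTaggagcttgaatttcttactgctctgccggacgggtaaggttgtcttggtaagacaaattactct
Tlr6: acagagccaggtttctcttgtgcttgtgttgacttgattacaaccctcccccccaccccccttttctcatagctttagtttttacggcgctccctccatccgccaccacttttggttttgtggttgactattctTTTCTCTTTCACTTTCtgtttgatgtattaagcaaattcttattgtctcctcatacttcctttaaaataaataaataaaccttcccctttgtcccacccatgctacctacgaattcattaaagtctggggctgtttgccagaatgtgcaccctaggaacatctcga
The promoter of Tlr9 held an AP-1 match at 58 bases before the gene start and a PU.1 match at 11 bases after it. Second start entries of Tlr1 and Tlr6, and the promoters of Tlr2, Tlr8 and Tlr13, held none of the letters sought. Looser forms of these motifs were not sought. A match describes letters in this window and is not a measured binding site.

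**Figure D1:**
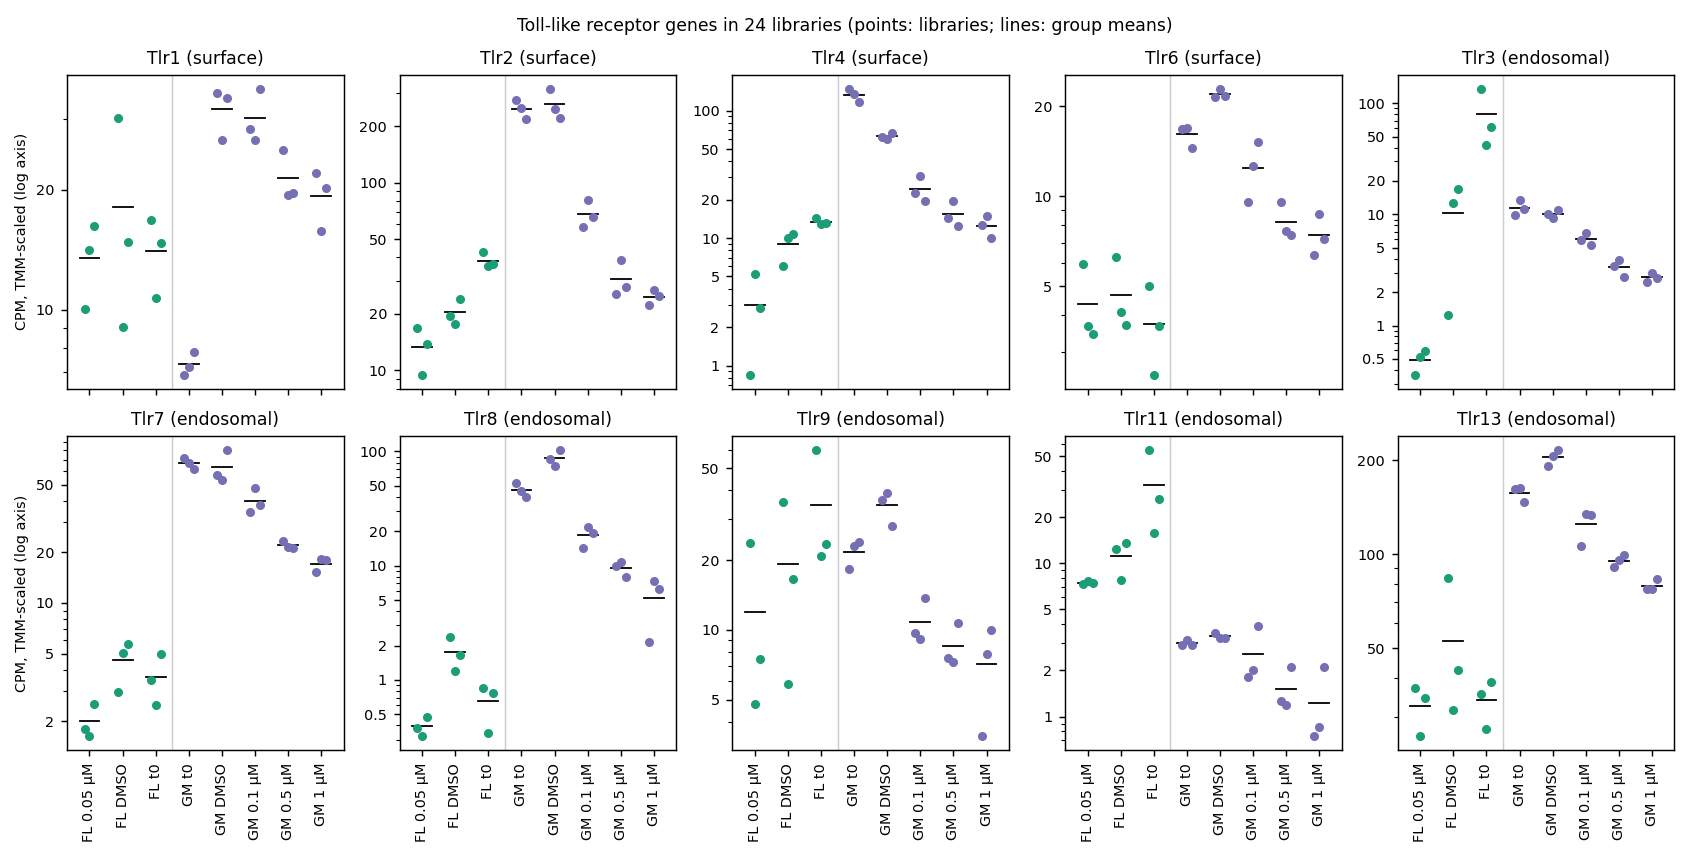
CPM of each gene in each of the 24 libraries on a log axis, with FL cultures on the left of the grey line and GM cultures on the right, points for libraries and black lines for group means. In GM cultures all points of 8 genes at 0.1 µM and of all 10 genes at 0.5 and 1 µM lie below those in DMSO, as did 30.5%, 36.7% and 34.7% of all genes tested at these doses.

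The first comparison of the culture types was made at t0. Between these types FLT3L, the length of culture and the culture number all differ. Their parts in any FL against GM difference, at t0 or in DMSO, cannot be told apart. Genotype, which is not given per library, may differ between the culture types as well. FL cultures had more Tlr3, Tlr11 and Tlr1 than GM cultures and less Tlr2, Tlr4, Tlr6, Tlr7, Tlr8 and Tlr13. Of all genes tested, 23.4% were called higher and 17.5% lower in FL cultures, and of the members 3 were called higher and 6 lower. The libraries of these 9 genes did not overlap between the culture types, nor did those of 62.2% of all genes tested. The median log2 difference was -2.16 over the 10 members, -2.40 over the surface and -0.77 over the endosomal receptors, against 0.09 over all genes tested.

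Tlr11, which in the mouse binds profilin of Toxoplasma, stood at 54.7, 15.8 and 26.4 CPM in FL cultures at t0 and at 2.95, 3.16 and 2.91 CPM in GM cultures at t0. Every FL library was above every GM library, with a log2 difference of 3.42 ± 0.43 (adjusted p = 2.1e-06). Tlr3, the receptor of double-stranded RNA, stood at 135, 42.0 and 61.6 CPM in FL cultures and 9.81, 13.6 and 11.1 CPM in GM cultures (2.79 ± 0.53, adjusted p = 0.00026). For both genes culture 91 was the highest FL library, and without it the differences were 2.81 and 2.17. Tlr1, which pairs with TLR2 to bind triacylated lipopeptides, stood at 16.8, 10.7 and 14.7 CPM in FL cultures and 6.88, 7.20 and 7.86 CPM in GM cultures (0.94 ± 0.30, adjusted p = 0.015). The call of Tlr1 was lost without the FL t0 library of culture 91 (0.80, adjusted p = 0.066) or without GM t0 replicate 1 (0.90, adjusted p = 0.053).

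Of the genes lower in FL cultures, the RNA receptors Tlr8 and Tlr7 differed the most. Tlr8, whose human protein binds RNA breakdown products, stood at 0.843, 0.341 and 0.772 CPM in FL cultures at t0 and at 53.2, 45.0 and 39.6 CPM in GM cultures at t0. The 3 FL libraries rested on 55, 22 and 40 counts, and the log2 difference was -6.14 ± 0.41 (adjusted p = 5.7e-10). Tlr7, the receptor of single-stranded RNA, stood at 3.51, 2.50 and 4.96 CPM in FL cultures and 72.2, 67.3 and 62.3 CPM in GM cultures (-4.21 ± 0.26, adjusted p = 2.2e-10). Both genes lie on the X chromosome, as does Tlr13, the receptor of bacterial ribosomal RNA in the mouse. Tlr13 stood at 35.7, 27.4 and 38.9 CPM in FL cultures and at 162, 163 and 147 CPM in GM cultures (-2.21 ± 0.24, adjusted p = 3.8e-07). The spread within each culture type was small beside these 3 differences.

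Surface receptors other than Tlr1 were lower in FL cultures as well. Tlr4, the receptor of lipopolysaccharide, stood at 14.4, 12.9 and 13.1 CPM in FL cultures at t0 and at 148, 134 and 118 CPM in GM cultures at t0 (-3.31 ± 0.39, adjusted p = 1.0e-06). Tlr2, the shared partner in lipoprotein recognition, stood at 42.6, 35.9 and 36.7 CPM in FL cultures and 276, 251 and 218 CPM in GM cultures (-2.69 ± 0.21, adjusted p = 3.6e-09). Tlr6, which pairs with TLR2 for diacylated lipopeptides, stood at 4.997, 2.53 and 3.69 CPM in FL cultures and 16.8, 17.0 and 14.5 CPM in GM cultures (-2.11 ± 0.26, adjusted p = 1.7e-06). Tlr9, the receptor of unmethylated CpG DNA, was the member not called, at 59.7, 20.7 and 23.5 CPM in FL cultures and 18.3, 23.0 and 23.9 CPM in GM cultures. Its FL libraries overlapped the GM values, and the log2 difference was 0.67 with a 95% interval of -0.41 to 1.76.

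Per length, the order of the genes differed between the culture types at t0 (mean ± SD, n = 3 each). In FL cultures Tlr3 was at 15.3 ± 9.43 CPM per kb, Tlr2 at 12.8 ± 1.21, Tlr9 at 9.96 ± 6.25, Tlr11 at 9.87 ± 6.15 and Tlr13 at 7.90 ± 1.38, and these neighbours lay within their spread of each other. Below them came Tlr1 at 4.20 ± 0.925 and Tlr4 at 2.43 ± 0.148 CPM per kb. Tlr6 at 1.00 ± 0.331 and Tlr7 at 0.896 ± 0.303 CPM per kb did not differ beyond their spread, and Tlr8 at 0.182 ± 0.0757 was the lowest. In GM cultures Tlr2 led with 82.3 ± 9.70 CPM per kb, followed by Tlr13 at 36.6 ± 2.12, Tlr4 at 24.0 ± 2.78, Tlr7 at 16.5 ± 1.21, Tlr8 at 12.8 ± 1.92, Tlr9 at 6.25 ± 0.862 and Tlr6 at 4.32 ± 0.371. Tlr3 at 2.21 ± 0.366 and Tlr1 at 2.19 ± 0.149 CPM per kb were alike within their spread, and Tlr11 at 0.918 ± 0.0415 was the lowest in GM cultures.

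**Figure D2:**
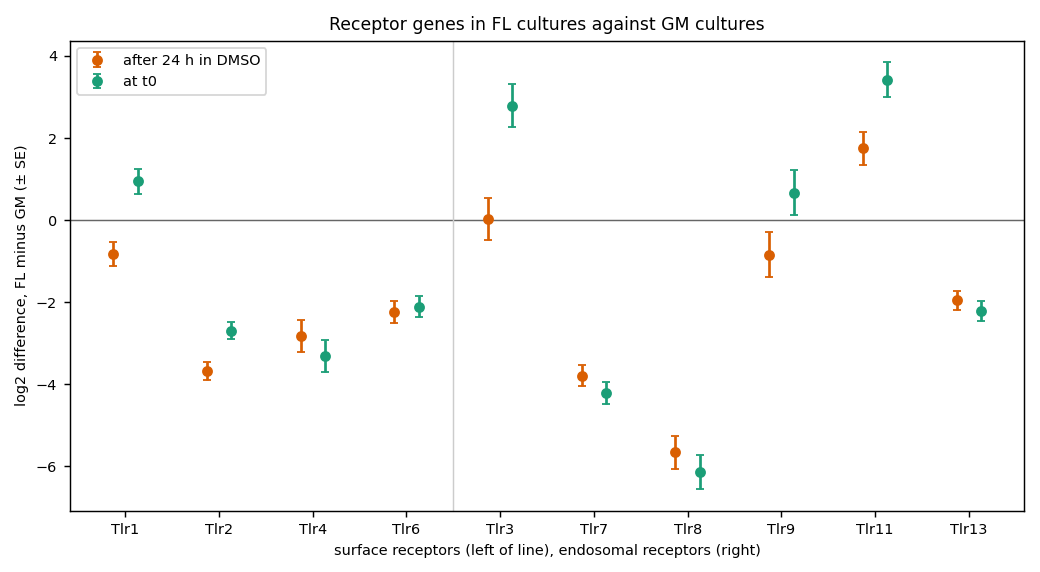
Log2 difference of each gene, FL minus GM cultures, after 24 h in DMSO and at t0, with standard errors as bars (3 libraries in each group). Tlr2, Tlr4, Tlr6, Tlr7, Tlr8 and Tlr13 lie below 0 at both times, Tlr11 above 0 at both, and Tlr3 lies at 0.03 in DMSO and at 2.79 at t0.

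After 24 h in DMSO, 7 members were called lower and 1 higher in FL cultures, where 21.4% of all genes tested were called lower and 20.0% higher. Tlr8 (-5.65 ± 0.40), Tlr7 (-3.78 ± 0.26), Tlr2 (-3.68 ± 0.22), Tlr4 (-2.82 ± 0.38), Tlr6 (-2.24 ± 0.26) and Tlr13 (-1.96 ± 0.24) had the same direction as at t0, with adjusted p at or below 7.7e-06. Tlr11 was still called higher in FL cultures (1.75 ± 0.40, adjusted p = 0.0017). Tlr1 was called lower in FL cultures in DMSO (-0.82 ± 0.29, adjusted p = 0.031), the other direction from t0, with 30.3, 9.07 and 14.8 CPM in FL cultures and 34.98, 26.6 and 33.98 CPM in GM cultures. The library of culture 91 overlapped the GM libraries, and without it the difference of Tlr1 was -1.42. Without the FL library of culture 94 (adjusted p = 0.13) or 95 (0.11), or GM replicate 1 (0.090) or 3 (0.074), the call of Tlr1 was lost, as it was with median-of-ratios scaling (0.053) and with only the groups compared (0.20). Tlr3 differed by 0.03 (95% interval -0.96 to 1.01) and Tlr9 by -0.84 (-1.93 to 0.26). With culture 91 left out of every FL group, Tlr3 was called higher in FL cultures (0.55, adjusted p = 0.020) and Tlr9 lower (-1.61, adjusted p = 0.0041).

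The 24 h in DMSO were then compared with t0 within each culture type. In GM cultures 4 members were called higher in DMSO than at t0 and 1 lower, against 27.2% and 20.3% of all genes tested. Tlr1 rose the most, to 34.98, 26.6 and 33.98 CPM in DMSO against 6.88, 7.20 and 7.86 CPM at t0 (2.11 ± 0.16, adjusted p = 5.3e-09). Tlr4 fell to 62.3, 60.1 and 67.4 CPM in DMSO against 148, 134 and 118 CPM at t0 (-1.09 ± 0.18, adjusted p = 8.1e-05). The groups did not overlap for either gene, and the lipopolysaccharide receptor and the lipopeptide receptor moved in opposite directions. Tlr8 (0.92 ± 0.27), Tlr6 (0.44 ± 0.15) and Tlr13 (0.37 ± 0.09) were called higher in DMSO, and Tlr9 (0.66 ± 0.26, adjusted p = 0.0504) just missed the threshold. Without GM t0 replicate 3 the calls of Tlr8 (adjusted p = 0.057) and Tlr6 (0.0998) were lost, leaving 2, and they were lost too without DMSO replicate 3 for Tlr8 (0.053) or DMSO replicate 2 for Tlr6 (0.069). Scaling by library totals alone, which lowered the median change of all genes by 0.17, left Tlr6 (0.28) and Tlr13 (0.20) uncalled.

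In FL cultures 1 member was called lower in DMSO than at t0 in the fit without the culture number, where 5.18% of all genes tested were called lower and 4.96% higher. That gene was Tlr2, at 19.6, 17.7 and 24.0 CPM in DMSO and 42.6, 35.9 and 36.7 CPM at t0 (-0.91 ± 0.22, adjusted p = 0.040). Leaving out any single library of the 2 groups lost that call, with adjusted p of 0.059 to 0.15. With the culture number as a block, 3 members were called lower in DMSO and 1 higher, against 10.2% and 9.23% of all genes tested. These were Tlr2 (-0.91 ± 0.18, adjusted p = 0.021), Tlr11 (-1.42 ± 0.34, adjusted p = 0.032) and Tlr9 (-1.01 ± 0.26, adjusted p = 0.037) as lower and Tlr8 (1.46 ± 0.37, adjusted p = 0.036) as higher. Tlr3 stood at 1.24, 12.8 and 16.8 CPM in DMSO and at 135, 42.0 and 61.6 CPM at t0, below t0 in each of the 3 cultures. Its change of -2.94 ± 0.81 missed the threshold (adjusted p = 0.052), and also with the block (0.056), but it was called without culture 91 (-1.81, adjusted p = 0.0060). Tlr2, Tlr4, Tlr9 and Tlr11 were likewise lower in DMSO in all 3 cultures, and Tlr6, Tlr8 and Tlr13 higher in all 3. The share of all genes tested with the same direction in all 3 cultures was not counted. Summed cDC1 markers stood at 1072 to 1722 CPM in DMSO and at 3076 to 7181 CPM in FL cultures at t0, with 4 of 10 markers called lower, 1 higher and none at 0. Sums of cDC2 markers were 464 to 642 CPM in DMSO and 680 to 766 CPM at t0. Those of neutrophil markers were 1987 to 9632 and 1220 to 4126 CPM, and of mast cell and basophil markers 626 to 1426 and 205 to 817 CPM. Monocyte and macrophage markers summed to 948 to 1654 and 916 to 1105 CPM. Plasmacytoid DC markers summed to 320 to 478 and 300 to 360 CPM, and B cell markers to 9.43 to 11.9 and 4.80 to 6.46 CPM. The part of these markers in these results was not tested.

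The change over 24 h in DMSO was called lower in FL than in GM cultures for 3 members, where 3.96% of all genes tested were called so. These were Tlr3 (difference of changes -2.77 ± 0.72, adjusted p = 0.030), Tlr1 (-1.76 ± 0.42, adjusted p = 0.017) and Tlr2 (-0.99 ± 0.28, adjusted p = 0.045). For Tlr1 the estimated change was above 0 in both culture types, at 0.37 in FL cultures (not called) and 2.11 in GM cultures. With the culture number as a block there were 5, against 7.62% of all genes tested, with Tlr9 (-1.71, adjusted p = 0.0091) and Tlr11 (-1.58, adjusted p = 0.028) added. Leaving out FL t0 culture 91 (adjusted p = 0.11 for both genes), GM DMSO replicate 1 (0.14 for Tlr2 and 0.058 for Tlr3) or 2 (0.069 and 0.052), or any GM t0 replicate (0.062 to 0.12 for Tlr2 and 0.052 to 0.080 for Tlr3) lost both Tlr2 and Tlr3 and left Tlr1. Tlr2 alone was lost without FL t0 culture 94 (0.055) or 95 (0.067) or FL DMSO culture 94 (0.099), and Tlr3 alone without GM DMSO replicate 3 (0.056). A fit of the 4 groups alone called 0 of the 10 by edgeR, with 4 lower and 1 higher below an unadjusted p of 0.05 there. The share of all genes tested below that unadjusted p was not counted. DESeq2 on all 24 libraries called 3 members, where it called 810 of 16895 genes lower and 386 higher.

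**Figure D3:**
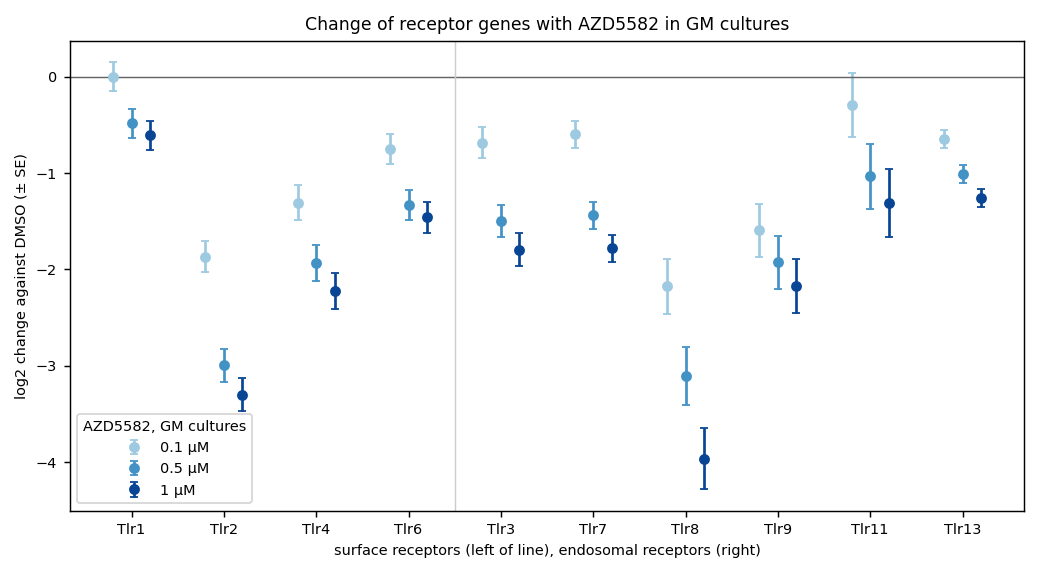
Log2 change of each gene against DMSO in GM cultures at 0.1, 0.5 and 1 µM AZD5582, with standard errors as bars (3 libraries in each group). All 10 genes lie below 0 at 0.5 and 1 µM, from Tlr1 at -0.61 to Tlr8 at -3.96 at 1 µM.

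Receptor genes were lower with AZD5582 in GM cultures. At 0.1 µM 8 of the 10 members were called lower than in DMSO, at 0.5 µM all 10 and at 1 µM all 10. Of all genes tested, 20.3%, 27.7% and 28.2% were called lower at these doses and 19.9%, 25.8% and 26.9% higher. The median log2 change of the members was -0.72, -1.47 and -1.79 at 0.1, 0.5 and 1 µM, against -0.01, -0.03 and -0.01 over all genes tested. At 1 µM the median was -1.84 over the surface receptors and -1.79 over the endosomal receptors. The 3 doses share their DMSO libraries.

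Among the surface receptors Tlr2 fell the most. It stood at 317, 246 and 222 CPM in DMSO, 57.9, 80.9 and 66.0 CPM at 0.1 µM, 25.7, 38.7 and 27.8 CPM at 0.5 µM and 22.4, 26.7 and 24.9 CPM at 1 µM. Each dose lay wholly below DMSO, with log2 changes of -1.87 ± 0.16, -2.99 ± 0.17 and -3.30 ± 0.17, the last a 9.85-fold fall (adjusted p = 6.3e-11). Tlr4 stood at 62.3, 60.1 and 67.4 CPM in DMSO, 22.7, 30.9 and 19.6 CPM at 0.1 µM, 14.4, 19.6 and 12.4 CPM at 0.5 µM and 12.7, 14.9 and 10.1 CPM at 1 µM, a change of -2.23 ± 0.19 at 1 µM (adjusted p = 2.6e-08). Libraries at 0.5 and 1 µM overlapped for both genes. Tlr6 stood at 6.36, 8.74 and 7.20 CPM at 1 µM and 21.6, 22.9 and 21.6 CPM in DMSO (-1.46 ± 0.16, adjusted p = 3.3e-07).

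Tlr1 had the smallest change of the 10 at 1 µM. It stood at 34.98, 26.6 and 33.98 CPM in DMSO, 28.4, 26.7 and 35.8 CPM at 0.1 µM, 25.1, 19.4 and 19.6 CPM at 0.5 µM and 22.1, 15.7 and 20.2 CPM at 1 µM. The change was 0.00 at 0.1 µM (95% interval -0.29 to 0.29), -0.48 ± 0.15 at 0.5 µM (adjusted p = 0.012) and -0.61 ± 0.15 at 1 µM (adjusted p = 0.0023). The call at 0.5 µM was lost without DMSO replicate 1, 0.5 µM replicate 2 or 0.5 µM replicate 3 (each adjusted p = 0.055). Tlr1 at 1 µM was still above its level at t0, where no GM library exceeded 7.86 CPM, whereas Tlr2, Tlr4 and Tlr6 were below theirs.

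Among the endosomal receptors Tlr8 fell the most of all 10. It stood at 85.5, 74.7 and 103 CPM in DMSO, 14.2, 22.0 and 19.2 CPM at 0.1 µM, 9.94, 10.7 and 7.99 CPM at 0.5 µM and 2.14, 7.29 and 6.20 CPM at 1 µM. The doses did not overlap with each other, and the change at 1 µM was -3.96 ± 0.32, a 15.6-fold fall (adjusted p = 6.3e-08), or -3.61 without the low library, replicate 1. Tlr9 stood at 36.5, 38.9 and 28.1 CPM in DMSO, 9.67, 9.15 and 13.7 CPM at 0.1 µM, 7.55, 7.30 and 10.7 CPM at 0.5 µM and 3.48, 7.83 and 9.99 CPM at 1 µM. Most of its fall was present at 0.1 µM (-1.60 ± 0.27, adjusted p = 0.00020), and at 1 µM it was -2.17 ± 0.28. Tlr7 (-1.78 ± 0.14), Tlr3 (-1.79 ± 0.17) and Tlr13 (-1.26 ± 0.09) changed less at 0.1 µM, by -0.60, -0.69 and -0.64.

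Tlr3 in GM cultures stood at 10.1, 9.38 and 10.9 CPM in DMSO, 5.84, 6.85 and 5.33 CPM at 0.1 µM, 3.46, 3.87 and 2.76 CPM at 0.5 µM and 2.49, 2.94 and 2.69 CPM at 1 µM. Tlr13 had the highest level per length at 1 µM, 18.4 ± 0.796 CPM per kb (mean ± SD, n = 3), with 77.0, 77.2 and 83.0 CPM there against 191, 206 and 215 CPM in DMSO. Neither gene overlapped DMSO at any dose. Tlr11 was low throughout, with 3.50, 3.24 and 3.24 CPM in DMSO, 1.80, 2.01 and 3.88 CPM at 0.1 µM, 1.27, 1.19 and 2.11 CPM at 0.5 µM and 0.746, 0.855 and 2.10 CPM at 1 µM. It was not called at 0.1 µM (-0.29, 95% interval -0.95 to 0.36) and was called at 1 µM (-1.31 ± 0.35, adjusted p = 0.0039), and replicate 3 was its highest library at every dose. Its call at 0.5 µM (-1.03 ± 0.34, adjusted p = 0.016) was lost without 0.5 µM replicate 1 (adjusted p = 0.058) or 2 (0.075).

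Between 1 µM and 0.1 µM 8 members were called lower at 1 µM, where 11.9% of all genes tested were, from Tlr8 (-1.79 ± 0.30) to Tlr1 (-0.61 ± 0.15). Tlr11 (-1.02 ± 0.35, adjusted p = 0.053) and Tlr9 (-0.58 ± 0.28, adjusted p = 0.17) were not called. Without 1 µM replicate 3 both were called, at -1.64 (adjusted p = 0.0034) for Tlr11 and -0.90 (0.041) for Tlr9, and without 0.1 µM replicate 1 Tlr11 was (0.034). Without 0.1 µM replicate 3 Tlr1 was not (adjusted p = 0.065).

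Markers of several cell types changed along with these genes. Of all genes tested, 28.2% were called lower at 1 µM than in DMSO and 26.9% higher, the shares for each marker count below. All 12 monocyte and macrophage markers were called lower at 1 µM than in DMSO and none was at 0. Their summed levels were 28983 to 35388 CPM in DMSO and 11518 to 12339 CPM at 0.1 µM. The sums were 5910 to 6524 CPM at 0.5 µM and 3876 to 5130 CPM at 1 µM. Of these markers Lyz2 alone averaged 26652 CPM in DMSO and 4182 CPM at 1 µM. All 10 neutrophil markers were also called lower, with sums of 7.02 to 14.3 CPM at 1 µM, where Elane was at 0, and 357 to 588 CPM in DMSO. The summed cDC1 markers were at 2100 to 2268 CPM at 1 µM and 1195 to 1336 CPM in DMSO, with 3 called higher and 4 lower of 9 tested and Xcr1 at 0. Of 8 cDC2 markers 6 were called lower and 2 higher, with sums of 710 to 859 CPM at 1 µM and 1484 to 1864 CPM in DMSO. Of 10 markers of plasmacytoid DCs 5 were called higher and 4 lower, with sums of 657 to 774 CPM at 1 µM and 328 to 428 CPM in DMSO. At 1 µM 6 of these 10 stood at 1 CPM or more, and Siglech and Klk1 were at 0. All 8 B cell markers were called higher, with sums of 70.6 to 81.0 CPM at 1 µM and 53.9 to 55.6 CPM in DMSO. The part of these markers in the receptor results was not tested.

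**Figure D4:**
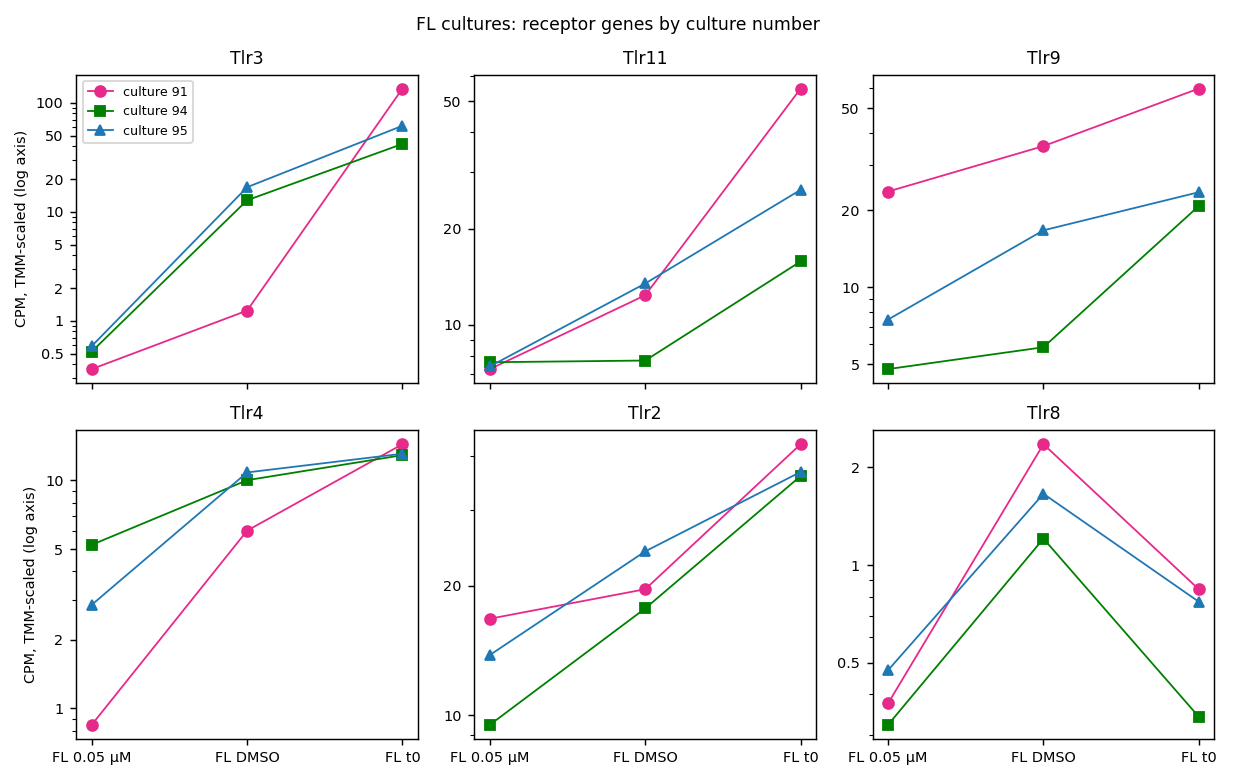
CPM of 6 genes in the 3 FL cultures on a log axis, with 0.05 µM AZD5582, DMSO and t0 from left to right and 1 line per culture number. Tlr3 lies below 0.6 CPM in every culture at 0.05 µM, against 1.24 to 16.8 CPM in DMSO.

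In FL cultures AZD5582 was given at 0.05 µM, a lower dose than in any GM group, so the culture types are described side by side and their responses are not compared. In the fit without the culture number all 10 estimates were below 0, and 2 members were called lower, where 1.28% of all genes tested were called lower and 1.62% higher. With the culture number as a block 2 were called lower too, where 589 of 15961 genes were called higher and 509 lower. By edgeR's test 7 members were lower at an unadjusted p under 0.05 with the block and 5 without it. The share of all genes tested below that unadjusted p was not counted, so these 2 counts are a description only. The values below are from fits without the block, so their SE, intervals and adjusted p include the spread between cultures. The median log2 change was -0.70 over the members and -0.05 over all genes tested. Tlr3 fell to 0.362, 0.524 and 0.588 CPM at 0.05 µM against 1.24, 12.8 and 16.8 CPM in DMSO (-4.40 ± 0.90, adjusted p = 0.041). Tlr8 fell to 0.376, 0.323 and 0.475 CPM at 0.05 µM against 2.36, 1.21 and 1.66 CPM in DMSO (-2.15 ± 0.46, adjusted p = 0.047). The groups did not overlap for either gene, both of which were low at 0.05 µM, and Tlr8 rested there on 27, 16 and 21 counts. Both calls were lost without the 0.05 µM library of culture 91, 94 or 95 or the DMSO library of culture 94 or 95, with adjusted p of 0.076 to 0.17 for Tlr3 and 0.075 to 0.16 for Tlr8. Without culture 91 in every group, Tlr8 was not called (-1.80, adjusted p = 0.076) and Tlr4 was (-1.33, adjusted p = 0.021), and without its DMSO library alone Tlr7 was called (-1.39, adjusted p = 0.036).

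The other 8 members were not called in FL cultures at 0.05 µM. Tlr4 stood at 0.849, 5.22 and 2.85 CPM at 0.05 µM and 6.03, 10.0 and 10.8 CPM in DMSO (-1.60 ± 0.55, adjusted p = 0.17), with no overlap. Tlr7 stood at 1.81, 1.63 and 2.53 CPM at 0.05 µM and 2.98, 5.08 and 5.72 CPM in DMSO (-1.21 ± 0.37, adjusted p = 0.13), again with no overlap. The level at 0.05 µM was below that in DMSO in 3 of 3 cultures for each member but Tlr1, for which it was in 1 of 3. The share of all genes tested that were lower in 3 of 3 cultures was not counted, so these directions are a description only. Tlr9 differed more between cultures than with treatment, at 23.6, 4.78 and 7.47 CPM at 0.05 µM and 35.6, 5.82 and 16.7 CPM in DMSO. Tlr6 changed by -0.11 (95% interval -0.80 to 0.59) and Tlr1 by -0.43 (-1.24 to 0.38). Monocyte and macrophage markers summed to 341 to 860 CPM at 0.05 µM and 948 to 1654 CPM in DMSO, with 4 of 12 called lower, 1 higher and none at 0. Of these markers Lyz2 alone averaged 443 CPM at 0.05 µM and 930 CPM in DMSO. Neutrophil markers summed to 168 to 3511 CPM at 0.05 µM and 1987 to 9632 CPM in DMSO. The cDC1 markers summed to 1680 to 3836 CPM at 0.05 µM and 1072 to 1722 CPM in DMSO, with 2 of 10 called lower. The part of these markers in the FL results was not tested.

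**Figure D5:**
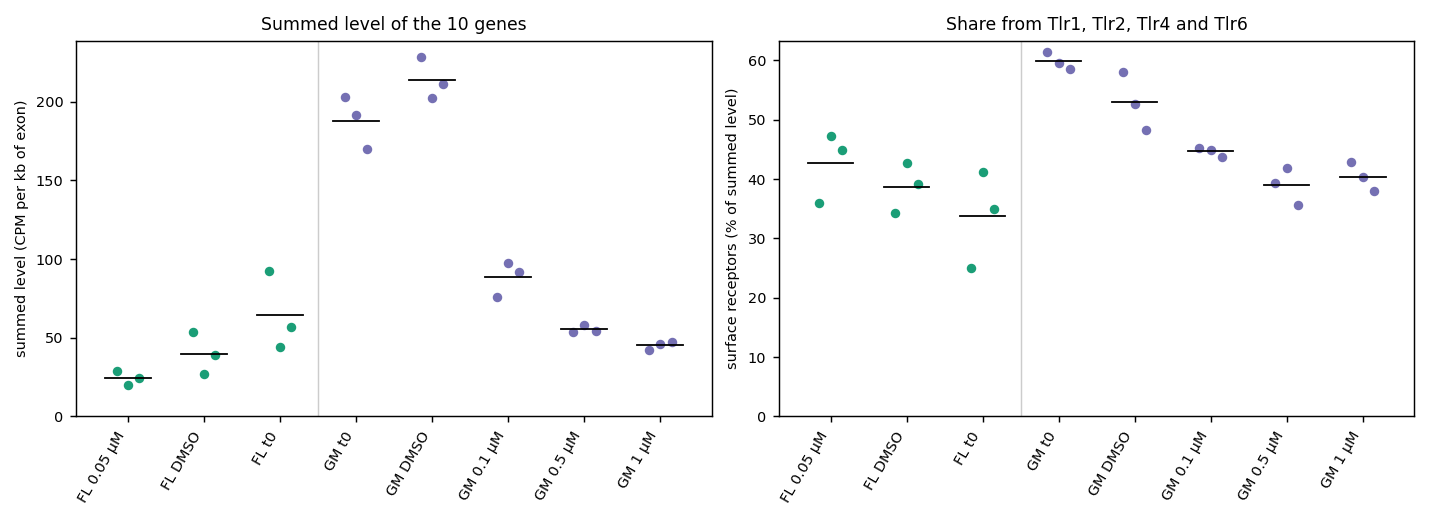
Summed level of the 10 genes in CPM per kb of exon (left) and the percent of it from the 4 surface receptors (right) in each library, with black lines for group means. In GM cultures the surface share is 37.99% to 42.9% at 1 µM and 58.6% to 61.5% at t0.

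Summed over the 10 genes, the level per length was 64.5 ± 24.96 CPM per kb in FL cultures at t0 and 188 ± 16.8 in GM cultures at t0 (mean ± SD, n = 3 each). The surface receptors made up 33.7% ± 8.14 of it in FL cultures (25.01% to 41.1%) and 59.9% ± 1.46 in GM cultures (58.6% to 61.5%). The ranges did not overlap, and Tlr2 alone held the largest part in GM cultures. In FL cultures the sum was 24.2 ± 4.46 CPM per kb at 0.05 µM and 39.9 ± 13.3 in DMSO, and the surface share was 42.8% ± 5.95 at 0.05 µM and 38.7% ± 4.21 in DMSO, with overlap. In GM cultures the sum was 214 ± 13.2 CPM per kb in DMSO, 88.4 ± 11.2 at 0.1 µM, 55.3 ± 2.22 at 0.5 µM and 45.2 ± 2.88 at 1 µM. The surface share was 53.0% ± 4.94 in DMSO (48.2% to 58.1%), 44.7% ± 0.845 at 0.1 µM, 38.9% ± 3.08 at 0.5 µM and 40.4% ± 2.45 at 1 µM. Every library at any dose had a lower surface share than every library in DMSO, while the 0.5 and 1 µM libraries overlapped. As a share over the members it carries no test.

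The family has 2 other receptor genes in the mouse. Tlr12, which acts with TLR11 in the mouse, stood at 85.5, 36.2 and 42.9 CPM in FL cultures at t0 and at 1.03, 0.988 and 0.895 CPM in GM cultures at t0. As for Tlr11, every FL library was above every GM library at t0. In DMSO Tlr12 stood at 5.34, 13.1 and 23.1 CPM in FL cultures and at 4.15, 4.11 and 3.20 CPM in GM cultures, where it was called higher than at t0 (1.97 ± 0.20, adjusted p = 3.3e-07). Tlr5, the flagellin receptor, had 32, 27 and 20 counts in FL cultures at t0 and 84, 93 and 88 counts in GM cultures at t0. In GM cultures it had 0, 1 and 0 counts at 1 µM and 183, 201 and 74 counts in DMSO. Both genes were called lower at 0.5 and 1 µM than in DMSO in GM cultures, Tlr12 by -0.84 ± 0.20 at 1 µM (adjusted p = 0.0014).

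Genes that act with the receptors were described from 7 lists of 60 genes in all. At 1 µM in GM cultures 30 of 59 tested were called lower than in DMSO and 21 higher, against 28.2% and 26.9% of all genes tested, with a median change of -0.30 against -0.01 over all genes tested. The counts of the single lists below are to be read against the same shares. Of 6 co-receptors 5 were called lower, among them Cd14, which hands lipopolysaccharide to TLR4 (-3.22 ± 0.18), and Cd180, a relative of TLR4 on B cells and DCs (-1.96 ± 0.11). Ly96, the lipopolysaccharide-binding partner of TLR4, was not called (0.17 ± 0.13). Of 9 trafficking genes 4 were called lower and 2 higher, with Unc93b1 at -2.27 ± 0.12, Rab7b at -2.14 ± 0.13 and the chaperone gene Hsp90b1 at -1.06 ± 0.10. Unc93b1 averaged 638 ± 81.3 CPM in DMSO, 238 ± 28.3 at 0.1 µM, 137 ± 4.14 at 0.5 µM and 122 ± 14.2 at 1 µM (SD, n = 3 each).

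Of 9 genes that process receptors or their nucleic acid ligands 7 were called lower and 2 higher at 1 µM, with the endolysosomal nuclease gene Pld4 at -4.19 ± 0.15, the protease gene Ctsl at -2.11 ± 0.13 and the nuclease gene Dnase1l3 at 1.80 ± 0.53. Of 5 adaptors tested 4 were called lower, with Ticam2, the bridge from TLR4 to TRIF, at -2.45 ± 0.15 and Tirap at -1.46 ± 0.16, and 1 higher. Downstream the directions were mixed. Of 15 kinases and ligases 7 were called higher and 5 lower, with Traf6 at 1.23 ± 0.12, Traf3 at 1.17 ± 0.10 and Ikbke at -2.60 ± 0.11. Of 6 transcription factors 3 were called higher, led by the NF-kB subunit gene Rel (1.51 ± 0.15), and 2 lower, led by Irf7 (-1.01 ± 0.31). Of 9 negative regulators 6 were called higher, led by Tnfaip3 (1.90 ± 0.15), and 3 lower, led by Irak3 (-1.71 ± 0.14).

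In FL against GM cultures at t0, 18 of the 60 genes were called higher in FL cultures and 19 lower, against 23.4% and 17.5% of all genes tested. The lower ones included Cd14 (-3.06 ± 0.35), Ticam2 (-3.36 ± 0.38), Ctsl (-3.27 ± 0.19), Ctsb (-2.59 ± 0.20) and Unc93b1 (-1.04 ± 0.18), and 7 of the 9 processing genes were among them. Higher were Dnase1l3 (3.58 ± 0.64), Rab7b (2.15 ± 0.41), Rel (1.58 ± 0.38) and Irf5 (1.08 ± 0.13), and 4 of the 6 transcription factors. In FL cultures in DMSO against t0, 5 of 60 were called lower and 1 higher, against 5.18% and 4.96% of all genes tested. Those lower were Cd180 (-2.92 ± 0.47), Rab7b (-2.42 ± 0.61), Irf7 (-2.22 ± 0.44), Myd88 (-1.46 ± 0.25) and Vamp3 (-0.60 ± 0.13), and Ly96 was higher (1.21 ± 0.21). At 0.05 µM against DMSO 4 of 60 were called lower, where 1.28% of all genes tested were, namely Rab7b (-2.86 ± 0.62), Pld4 (-2.68 ± 0.45), Cd36 (-2.16 ± 0.37) and Ctsl (-1.57 ± 0.24).

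The genes whose pattern over the 24 libraries was most like each member were listed by Pearson's r of log2(CPM + 1) among 9538 protein-coding genes with a group mean of at least 10 CPM. The libraries share groups and culture types, so r is a description. The closest gene was Tpp1 for Tlr7 (r = 0.991), Lmbrd1 for Tlr2 (0.983), Wls for Tlr4 (0.982), Ctss for Tlr8 (0.979), Stac2 for Tlr13 (0.977), Hpse for Tlr6 (0.973), Rab7b for Tlr3 (0.967), Rtl8c for Tlr11 (0.962), Tln1 for Tlr9 (0.945) and Tnfaip2 for Tlr1 (0.876). Tlr6 and Tlr8 were near neighbours of each other (r = 0.967), and r was 0.959 between Tlr7 and Tlr8. Over both culture types together, r was -0.66 between Tlr11 and Tlr7 and 0.03 between Tlr1 and its partner Tlr2. Within GM cultures Tlr11, Tlr7, Tlr1 and Tlr2 were all called lower at 1 µM than in DMSO.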

How the data were processed

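Raw counts per gene, with no normalisation, were the values the authors deposited, with 55414 gene lines per library. The submitters' processing notes list STAR 2.7.3a, HTSeq 0.12.4, DESeq2 1.30.1 and the mouse build GRCm39. RNA had an integrity number above 8 and libraries were made with a stranded kit, per the labels' protocols. Neither annotation release nor strand setting is given in the sources used here. Lines that name no gene took 10.98% to 16.4% of counted reads and were left out of totals and tests.

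Symbols, exon lengths and coding lengths were taken by Ensembl identifier from GENCODE M21 (GRCm38), which named 52133 of the gene lines, and no coordinates of that annotation are given. Tests used edgeR 4.0.16 (R 4.3.3) with TMM scaling, filterByExpr on the groups and robust quasi-likelihood fits of group means. One model held the 15 GM libraries (16152 genes, biological coefficient of variation 0.146), another the 9 FL libraries (15961 genes, 0.390), and the comparisons of culture types used all 24 (17262 genes, 0.272). SE is the size of the log2 change over the root of the test's F. Intervals at 95% are 1.96 SE on either side. The fits were tested on simulated data with known changes before use. Libraries held 27012555 to 85820558 counts on genes, and precision at low levels is limited by counting.

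Same-numbered FL libraries deviated together from their group means (correlations of 0.689, 0.638 and 0.194 between 0.05 µM and DMSO, and 0.257, 0.274 and 0.135 between DMSO and t0), so the culture numbers in the titles were taken to pair them. Values with that block are given where it changes a call.

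Alternatives were median-of-ratios scaling, no filter, DESeq2 1.42.0, only the groups compared, a replicate block and leaving out each library, and for the surface share coding length or no length. Library totals alone and the omission of culture 91 were added after seeing the data. The members, gene lists and marker lists were chosen with earlier results of these data known. Named pathway genes are a selection from the up to 3 called genes per list with the largest change in GM cultures at 1 µM, in FL cultures in DMSO against t0 and in FL against GM cultures at t0, and genes of similar pattern are those with the highest r for each member.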

Additional observations from a re-analysis of the deposited data

Results flagged for a closer look

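Among the receptor genes of the family, 4 were called for a lower change over 24 h in DMSO in FL than in GM cultures by edgeR's test of the difference itself, where 3.96% of all genes tested were. The change in FL cultures minus that in GM cultures was -1.76 for Tlr1, -0.987 for Tlr2 and -2.77 for Tlr3 on the log2 scale. Both changes of Tlr1 were estimated above 0, at 0.37 in FL and 2.11 in GM cultures. For Tlr12, which is not among the 10 genes, it was -3.96 ± 0.58 (SE, edgeR adjusted p = 0.00038), with 5.34, 13.1 and 23.1 CPM in DMSO and 85.5, 36.2 and 42.9 CPM at t0 in FL cultures, and 4.15, 4.11 and 3.20 CPM in DMSO and 1.03, 0.988 and 0.895 CPM at t0 in GM cultures. Of 19 refits under alternatives, the call was lost in 13 for Tlr2, in 10 for Tlr3 and in 1 for Tlr1, that with only the 4 groups compared, and Tlr12 was not refitted. The cause was not tested.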

How the results depend on the processing

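Over all comparisons, 1290 member values were refitted under alternatives. Of these, 1165 kept their direction and side of the threshold, 67 lost the call, 33 gained one and 25 changed sign. At 1 µM against DMSO in GM cultures all 120 refits kept both. The counts of members called lower with single libraries left out were 8 at 0.1 µM, 8 to 10 at 0.5 µM, 10 at 1 µM and 7 to 10 at 1 against 0.1 µM. Of the 16616 to 16669 genes then tested, 2752 to 3232, 3969 to 4375, 4145 to 4623 and 1385 to 1880 were called lower. The members called higher in DMSO than at t0 in GM cultures were 2 to 4 with libraries left out and 2 with library totals alone. Over all genes tested, 3787 to 4052 and 3186 were called higher in these fits. With library totals alone the median of all genes moved by -0.16 at 0.5 µM, -0.23 at 1 µM and -0.13 at 1 against 0.1 µM in GM cultures, by -0.16 at 0.05 µM in FL cultures and by 0.15 for FL against GM cultures in DMSO. For GM DMSO against t0, Tlr2 was then -0.10 (0.07 in TMM scaling) and Tlr11 -0.027, and Tlr1 at 0.1 µM was -0.10, or -0.023 with no filter. In GM cultures libraries of the same replicate number correlated at 0.047 to 0.206 between groups, and those of different numbers at -0.117 to 0.022. Whether the same number marks a shared source is not given. A replicate block there called 8, 10 and 10 members lower at 0.1, 0.5 and 1 µM, 9 lower at 1 against 0.1 µM, and 5 higher and 1 lower in DMSO against t0. Of 16152 genes tested with that block, 3420, 4601 and 4658 were lower at these doses and 2085 lower at 1 against 0.1 µM. In DMSO against t0 it called 4538 genes higher and 3420 lower.

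In FL cultures at 0.05 µM, the members called lower were 1 with median-of-ratios scaling, 4 with DESeq2, 2 with the culture number as a block and 0 to 3 with libraries left out. Over all genes tested, 196 of 15961, 695 of 17550, 509 of 15961 and 4 to 981 were called lower in these fits. With no filter and with only the groups compared, edgeR called 0, where 176 of 26200 and 5 of 14999 genes were called lower. Below an unadjusted p of 0.05 were 5 and 4 members, and the share of all genes there was not counted. In FL DMSO against t0 they were 3 lower and 1 higher both with DESeq2 and with the block, 2 lower with library totals alone and 0 to 1 lower with libraries left out. The difference of the 24 h changes was called for 1 member with no filter and with library totals alone, 5 with the block, 1 to 3 with libraries left out, and 0 by edgeR with only the groups compared, where Tlr6 was 0.016 and the median of all genes moved by 0.14. In FL against GM cultures the members called higher were 2 in DMSO with culture 91 left out of every FL group, where 3678 of 17492 genes were.

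With libraries left out, values that changed sign ranged as follows. In GM cultures Tlr1 at 0.1 µM ranged over -0.15 to 0.083, and in DMSO against t0 Tlr2 over -0.092 to 0.17 and Tlr7 over -0.30 to 0.015. In FL cultures at 0.05 µM Tlr1 ranged over -0.75 to 0.22 with single libraries left out and was 0.39 without culture 91, Tlr6 over -0.36 to 0.20 and Tlr9 over -1.62 to 0.15, and Tlr1 in DMSO against t0 over -0.24 to 0.69, and was -0.099 without culture 91. The difference of changes ranged over -0.40 to 0.14 for Tlr6 and -0.25 to 0.51 for Tlr13, which was -0.21 without culture 91, and Tlr3 in FL against GM cultures in DMSO over -0.53 to 0.54, and was 0.55 without culture 91.

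Over all genes, 1119 were higher at 1 than at 0.1 µM, but 433 with only these groups, 415 with library totals alone and 446 to 1218 with libraries left out, and 2847 against 4350 were higher at 1 µM than in DMSO with library totals alone. At 0.05 µM 258 were higher and 205 lower, against 589 and 509 with the block, 646 and 695 with DESeq2, 26 and 5 with only the groups compared, and 13 to 1302 and 4 to 981 with libraries left out. In FL DMSO against t0 792 and 827 were called, against 1473 and 1634 with the block, 1671 and 1460 with DESeq2, 237 and 345 with only these groups, and 2 to 878 and 10 to 997 with libraries left out. For the difference of changes 152 and 683 were called, against 369 and 1316 with the block, 386 higher with DESeq2, 383 lower with no filter, 95 and 166 with only these groups, and 82 to 743 and 404 to 1853 with libraries left out. In FL against GM cultures in DMSO 3460 and 3687 were called, or 1943 and 1923 with only these groups.

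The mean surface share was 62.3% with coding length and 56.8% with no length in GM cultures at t0, 45.8% and 40.1% at 0.1 µM, and with no length 35.04% at 0.5 µM and 36.3% at 1 µM. The cause of these shifts was not tested beyond the change of setting. Depth limits Tlr8 in FL cultures, which rested on 16 to 55 counts at 0.05 µM and t0.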
